A study of Mus musculus with 6 samples.

Results

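MYC works in a pair. Together with MAX it binds the DNA letters CACGTG, called the E-box, and raises transcription of genes for growth, ribosome building and metabolism. The same MAX also pairs with MXD1, MXD3, MXD4, MXI1 and MNT, which recruit histone deacetylase complexes to such sites and lower transcription, and MLX with its partner MLXIP (MondoA) forms a further branch that responds to glucose metabolites. In blood vessels MYC is known to promote growth of endothelial cells, and Notch signaling is known to hold sprouting and division of these cells back.

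The 10 network genes Myc, Mycn, Max, Mxd1, Mxd3, Mxd4, Mxi1, Mnt, Mlx and Mlxip were followed here in tumor cell fractions enriched for tumor endothelial cells (TECs). They were taken by symbol from a table of 23473 RefSeq rows and 56826 rows in all, and each of the 10 had 1 row. Of these, 9 had a mean of at least 1 RPKM (reads scaled to gene length and library depth) over the 6 libraries and were among the 12320 rows tested, while Mycn did not reach it. The libraries were bulk RNA-seq of cells captured with CD31 beads from Lewis lung carcinoma (LLC) tumors, which grow from a transplanted mouse lung cancer line. There were 3 Ctrl and 3 NICeCA libraries from C57BL/6 mice aged 8 weeks. NICeCA mice carry a Cdh5 promoter Cre ERT2 and a Rosa26 allele in which a floxed stop precedes the Notch1 intracellular domain (ICD), so that tamoxifen switches on Notch signaling in cells that express Cdh5 without need of a ligand. Ctrl mice are labelled wild type, and the sources used here do not say whether they carried Cre or received tamoxifen. The labels say that tumors were taken on differing days without tying days to libraries, whereas the study's methods give 1 collection day for all 6 libraries. The comparison asks whether the network differs when Notch is held active in tumor endothelium.

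The libraries held between 27793301 and 30769916 reads on RefSeq rows. Notch1 itself, whose row would also take reads of the transgene, stood at 8.19 to 14.3 RPKM in Ctrl and 12.3 to 13.6 in NICeCA, and its groups overlapped. Among Notch target genes, Hey1 rose by 1.10 on the log2 scale (SE 0.27, limma adjusted p = 0.041), Nrarp had a log2 fold change of 1.05 (limma adjusted p = 0.052), and Hes1 one of -0.16 (limma adjusted p = 0.56). The Hey1 call held in 6 of 16 alternative fits, and with the mean of the endothelial markers as a covariate the values were 0.50 for Hey1 and 0.36 for Nrarp, neither of which passed. All 15 endothelial markers were detected, with a summed level of 264 to 672 RPKM in Ctrl and 572 to 744 in NICeCA. All 15 had positive log2 fold changes, with a median of 0.66, and 2 were called higher. Macrophage markers summed to 7012 to 10003 RPKM in Ctrl and 5405 to 9273 in NICeCA. Of these 10 markers, 3 were called higher and none lower, and 6 had negative log2 fold changes. Lyz2, a lysozyme of macrophages and neutrophils, alone reached 2611 to 5555 RPKM against 47.5 to 154 for Pecam1, which encodes CD31. Pericyte markers summed to 32.7 to 46.4 RPKM in Ctrl and 61.9 to 115 in NICeCA, with 2 of 7 tested called higher. Neutrophil markers summed to 234 to 400 RPKM in Ctrl and 857 to 2002 in NICeCA, and 9 of the 11 tested were called higher. The libraries were therefore not of endothelial RNA alone, and in bulk samples fewer cells of a type and less RNA per cell cannot be told apart.

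Of the 9 tested network genes, 3 passed an adjusted p of 0.05 in limma. Mxd1 and Mxi1, which encode MAX partners that repress, rose in NICeCA cells, while Mnt, which encodes the broadly expressed repressor of the family, fell. Myc, Max, Mxd3, Mxd4, Mlx and Mlxip did not pass. Over all tested genes 13.6% passed, 5.88% higher and 7.68% lower in NICeCA, against 2 of 9 network genes higher and 1 of 9 lower. Higher genes made up 43.4% of all calls and 58.1% when libraries were scaled by trimmed mean, which called the same numbers of network genes. The groups did not overlap for 4 of the 9, Mxd1, Mxi1, Mnt and Mlx, a share close to the 40.9% over all tested genes. The median log2 fold change was 0.06 over the 9 genes and -0.05 over all tested genes.

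**Figure D1:**
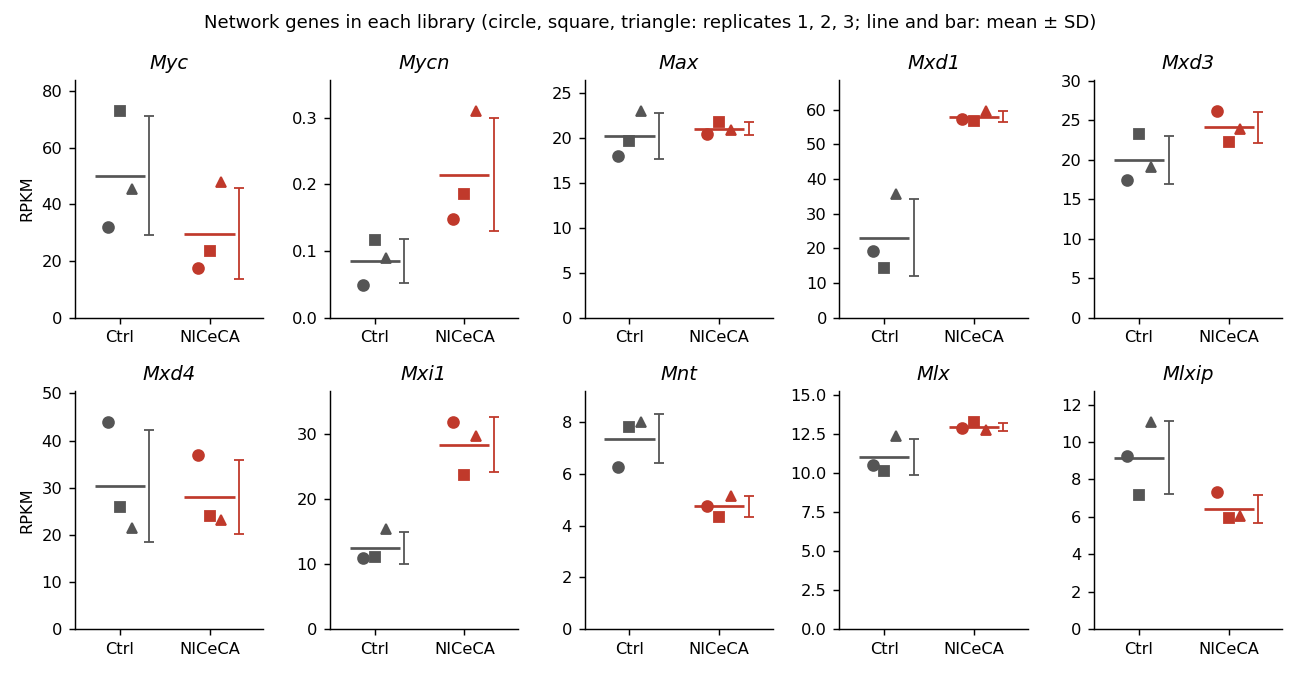
RPKM (vertical axes, each starting at 0) of the 10 network genes in the 3 Ctrl (grey) and 3 NICeCA (red) libraries, with replicates 1, 2 and 3 as circle, square and triangle, the mean as a line and the SD as a bar. The NICeCA points lie above all Ctrl points for Mxd1, Mxi1, Mlx and Mycn and below them for Mnt, while for Myc they overlap.

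Myc, on chromosome 15 from 61985341 to 61990361 (plus strand, GRCm38), had a higher level than its relative Mycn in every library. Its level was 31.9, 73.1 and 45.3 RPKM in Ctrl cells and 17.4, 23.7 and 47.9 RPKM in NICeCA cells. NICeCA replicates 1 and 2 were below every Ctrl library, but replicate 3 was above Ctrl replicates 1 and 3, so the groups overlapped. The log2 fold change was -0.78 with a standard error of 0.40 and a 95% interval from -1.70 to 0.14 (limma adjusted p = 0.20, n = 3 per group). It lay between -1.18 and -0.47 when 1 library was left out, and the lowest adjusted p of these fits was 0.059, without NICeCA replicate 3. With the endothelial markers as a covariate it was -0.37 (limma adjusted p = 0.74). Ctrl replicate 2, which had the highest Myc level, also had the lowest endothelial marker sum (264 RPKM), the highest fibroblast marker sum (561 RPKM) and the highest sum of proliferation markers (155 RPKM). NICeCA replicate 3, with the highest Myc level of its group, likewise had the highest fibroblast (322 RPKM) and proliferation (102 RPKM) marker sums among the NICeCA libraries. The part of these cells in the Myc values was not tested.

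Pvt1, a long noncoding RNA gene that lies beside Myc from 62037987 to 62250975 on the same strand, was read with it. It stood at 23.1, 57.9 and 27.5 RPKM in Ctrl and 7.24, 10.9 and 20.0 RPKM in NICeCA. The order of the libraries within each group was that of Myc, and the groups did not overlap. Its log2 fold change was -1.43 (SE 0.41, limma adjusted p = 0.054), and it passed only in the fit without NICeCA replicate 3 (limma adjusted p = 0.037) among 16 alternatives. H2afy3, a row on the opposite strand inside Pvt1, fell by 1.93 on the log2 scale (SE 0.52, limma adjusted p = 0.048), from 10.1, 29.0 and 8.56 RPKM to 0.946, 3.88 and 5.06 RPKM, a call that held in 4 of 16 alternatives. No source used here states whether reads were assigned by strand, so the reads of H2afy3 and Pvt1 cannot be separated.

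The tested genes whose log2(RPKM + 1) was most like that of Myc over the 6 libraries were U05342 (Pearson r = 0.996), Bmpr1a (0.994), which encodes a receptor for bone morphogenetic proteins, Spry4 (0.991), which encodes an inhibitor of receptor tyrosine kinase signaling, Aebp1 (0.991) and Fosl1 (0.991), which encodes an AP-1 subunit. These are descriptions over libraries that share depth, cell mixture and group. Each of the 5 had its highest level in Ctrl replicate 2 and its lowest in NICeCA replicate 1, as Myc did. Their log2 fold changes ran from -0.13 for U05342 to -0.69 for Fosl1, and none passed the limma threshold, with a lowest adjusted p of 0.17 for Aebp1.

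Mycn, the MYC relative used mainly in embryonic and neural tissue, was close to absent. It had 5, 12 and 9 reads in Ctrl and 14, 17 and 30 reads in NICeCA, or 0.049, 0.116 and 0.089 RPKM against 0.148, 0.185 and 0.310 RPKM. The NICeCA values were all above the Ctrl values, with an exact two-sided permutation p of 0.10, the smallest that 3 against 3 libraries can give. Among relatives outside the 10 genes, Mycl1 was at 0.855 to 1.71 RPKM in Ctrl and 0.948 to 1.36 in NICeCA, and Mlxipl (ChREBP) did not exceed 0.116 RPKM in any library. Mga, a large MAX partner, stood at 6.66 to 8.28 RPKM in Ctrl and 6.05 to 6.56 in NICeCA, with a log2 fold change of -0.19 (limma adjusted p = 0.28).

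Max, the shared partner, had the smallest log2 fold change of the 9 genes. It was at 18.0, 19.6 and 23.0 RPKM in Ctrl and 20.4, 21.8 and 20.9 RPKM in NICeCA, where all NICeCA values lay within the Ctrl range. The log2 fold change was 0.06 with a 95% interval from -0.23 to 0.35 (limma adjusted p = 0.76).

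Mxd1 encodes a MAX partner that takes over when cells such as myeloid cells leave division and differentiate. The gene lies on chromosome 6 from 86647045 to 86669159, minus strand. Its level was 19.1, 14.4 and 35.8 RPKM in Ctrl and 57.4, 56.8 and 59.7 RPKM in NICeCA. The NICeCA libraries were within 3 RPKM of each other, and the groups did not overlap although Ctrl replicate 3 stood above the other Ctrl libraries. Mxd1 rose by 1.39 on the log2 scale (SE 0.28, 95% interval 0.73 to 2.05, limma adjusted p = 0.030), and the ratio of the group means was 2.51. The call was lost without Ctrl replicate 1 (limma adjusted p = 0.055), Ctrl replicate 2 (0.054), NICeCA replicate 1 (0.11) or NICeCA replicate 2 (0.11), while the fold change stayed between 1.12 and 1.74. It held in 9 of 16 alternatives and was lost with endothelial markers as a covariate (limma adjusted p = 0.23). A FANTOM3 transcript row at the start of Mxd1 was at 12.4, 8.35 and 25.3 RPKM in Ctrl and 34.6, 32.7 and 32.1 RPKM in NICeCA. Beside this rise stands that of the neutrophil markers, whose summed level was higher in every NICeCA library than in any Ctrl library. Ctrl replicate 3 had the highest Mxd1 level and the highest neutrophil sum (400 RPKM) of the Ctrl group, but among NICeCA libraries that sum ran from 857 to 2002 RPKM while Mxd1 hardly varied. The part of neutrophils, or of other cell types with markers called higher, in the Mxd1 values was not tested.

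Mxi1 encodes the family member also known as MXD2, a further MAX partner that opposes MYC and is known as a hypoxia-responsive gene. The gene lies on chromosome 19 from 53310506 to 53375810, plus strand. It stood at 10.9, 11.0 and 15.3 RPKM in Ctrl and 31.8, 23.6 and 29.6 RPKM in NICeCA, with no overlap between the groups. Mxi1 rose by 1.13 on the log2 scale (SE 0.17, 95% interval 0.73 to 1.53, limma adjusted p = 0.017), and the ratio of the group means was 2.28. This was the lowest adjusted p among the network genes. The call held in 13 of 16 alternatives and was lost without NICeCA replicate 1 (limma adjusted p = 0.080), without NICeCA replicate 2 (0.050, just above the threshold) and with endothelial markers as a covariate (0.12). The log2(RPKM + 1) values of Mxi1 and Mxd1 had a Pearson r of 0.95 over the 6 libraries, which shared the group difference. As with Mxd1, Ctrl replicate 3 had the highest Mxi1 level and the highest neutrophil marker sum (400 RPKM) of the Ctrl group. Among NICeCA libraries, replicate 1 had the highest Mxi1 level and the lowest neutrophil sum (857 RPKM). The part of neutrophils, or of other cell types with markers called higher, in the Mxi1 values was not tested.

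The 250 bases before the RefSeq start sites of Mxd1 and Mxi1 are shown because these are the network genes that rose together. Both are given 5′ to 3′ on the strand of the gene in GRCm38.p6, Mxd1 from chr6:86669160-86669409 (minus strand) and Mxi1, at the first of its 3 start sites, from chr19:53310256-53310505 (plus strand). Capitals mark GGGCGG, the GC box, and TGGGAA, the core of sites bound by RBPJ, the DNA-binding factor of Notch signaling, each read on either strand.
Mxd1: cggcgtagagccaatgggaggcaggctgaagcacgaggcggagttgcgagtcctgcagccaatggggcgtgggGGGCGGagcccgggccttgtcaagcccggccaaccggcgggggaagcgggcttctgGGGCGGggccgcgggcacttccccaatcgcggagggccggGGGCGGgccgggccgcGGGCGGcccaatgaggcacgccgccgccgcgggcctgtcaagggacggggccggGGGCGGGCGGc
Mxi1: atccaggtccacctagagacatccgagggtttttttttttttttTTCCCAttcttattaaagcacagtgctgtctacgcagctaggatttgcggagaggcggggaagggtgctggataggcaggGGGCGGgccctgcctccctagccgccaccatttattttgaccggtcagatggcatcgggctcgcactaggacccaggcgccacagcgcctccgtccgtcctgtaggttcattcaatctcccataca
The Mxd1 stretch held GGGCGG 6 times, with neighbouring copies overlapping next to the start site, and no TGGGAA. The Mxi1 stretch held each motif 1 time. In windows from 250 bases before to 50 after each start site, GGGCGG was present in 35.7% and TGGGAA in 25.6% of 32851 windows of the genome. By gene the shares were 38.2% and 28.3%, and 7 and 2 of the 9 network genes with a window had them. These matches are therefore a description of the letters only. At the second Mxi1 start site, a FANTOM3 transcript row was at 9.93, 9.68 and 11.8 RPKM in Ctrl and 20.4, 14.0 and 18.1 RPKM in NICeCA, without overlap. Other FANTOM3 rows within Mxi1 were lower and their groups overlapped. The row at the 3′ end had means of 1.31 RPKM in Ctrl and 1.47 in NICeCA. A further row had means of 3.06 and 2.35 RPKM, and a row on the opposite strand had 1.69 and 1.22 RPKM.

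Mxd3 and Mxd4 complete the MXD family, and neither passed the test. Mxd3, which unlike its relatives is known from dividing cells, was at 17.4, 23.3 and 19.1 RPKM in Ctrl and 26.2, 22.2 and 23.9 RPKM in NICeCA. Its groups overlapped, and its log2 fold change was 0.27 (95% interval -0.06 to 0.60, limma adjusted p = 0.21). The end of Mxd3 overlaps 105 bases of Prelid1, a gene on the opposite strand at 138 to 254 RPKM, so an unknown part of the Mxd3 reads may belong to Prelid1. A FANTOM3 row of 1740 bases within Mxd3 leaves out that overlap. This row was at 3.27, 6.74 and 3.20 RPKM in Ctrl and 3.34, 3.14 and 3.18 RPKM in NICeCA, well below the Mxd3 row and without a rise. Its exons need not be those of the Mxd3 row, and the part of Prelid1 in the Mxd3 values was not tested. Mxd4 was at 43.9, 25.9 and 21.4 RPKM in Ctrl and 37.0, 23.9 and 23.0 RPKM in NICeCA. Replicate 1 was the highest library in both groups, and the log2 fold change of -0.08 (95% interval -0.74 to 0.57, limma adjusted p = 0.86) changed sign without Ctrl replicate 1 (0.21).

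Mnt, on chromosome 11 from 74830924 to 74845725, went the other way. Its level was 6.27, 7.80 and 8.01 RPKM in Ctrl and 4.74, 4.32 and 5.16 RPKM in NICeCA, and no NICeCA library reached a Ctrl library. Mnt fell by 0.54 on the log2 scale (SE 0.13, 95% interval -0.84 to -0.23, limma adjusted p = 0.041), and the ratio of the means was 0.644. The call held in 6 of 16 alternatives. It was lost when Ctrl replicate 2 or 3 or any NICeCA library was left out, with adjusted p from 0.054 to 0.16 in limma. Mnt is a long row (4586 bases), and removing each library's trend with row length lowered the number of all genes called lower from 946 to 206. Its own log2 fold change in that fit was -0.39 (limma adjusted p = 0.076). The rows of Mxd1 (4661 bases) and Mxi1 (5619 bases) are longer still, and in the same fit their log2 fold changes were 1.54 and 1.33 and both were called.

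**Figure D2:**
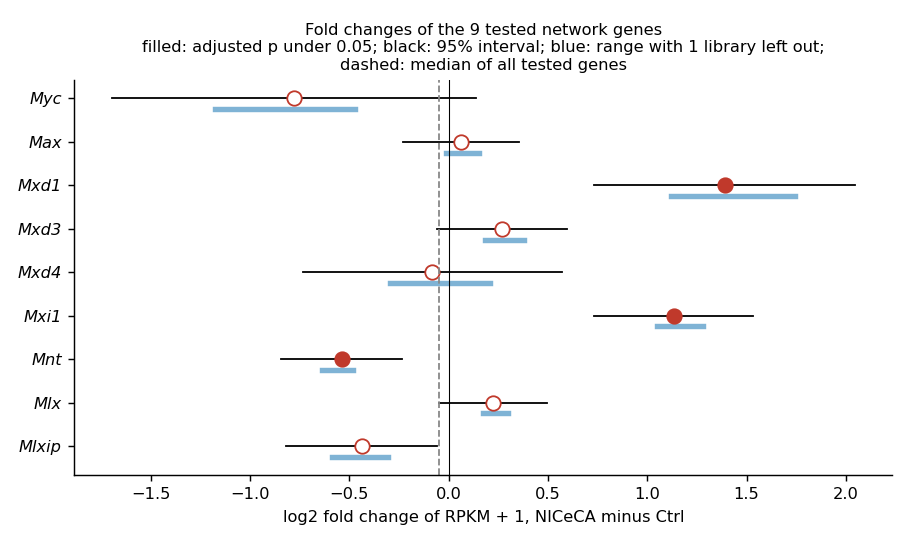
Log2 fold change of RPKM + 1, NICeCA minus Ctrl (horizontal axis), for the 9 tested network genes, with 95% intervals in black, the range when 1 library is left out in blue and genes with limma adjusted p under 0.05 filled. Mxd1 (1.39) and Mxi1 (1.13) lie right of 0 and Mnt (-0.54) left of it, and the widest interval is that of Myc.

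Mlx and Mlxip encode partners in the glucose-sensing branch. Mlx was at 10.6, 10.2 and 12.4 RPKM in Ctrl and 12.9, 13.3 and 12.8 RPKM in NICeCA. The groups just missed each other, and the log2 fold change was 0.22 (95% interval -0.05 to 0.49, limma adjusted p = 0.21). Mlxip was at 9.23, 7.17 and 11.1 RPKM in Ctrl and 7.31, 5.94 and 6.02 RPKM in NICeCA, with overlap at Ctrl replicate 2. Its log2 fold change was -0.44 (limma adjusted p = 0.10) and -0.16 in the fit without the length trend. Its row of 7647 bases is the longest of the 10.

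The E-box was present near the start sites of 4 of the 9 network genes that have a window, Max, Mlx, Mnt and Mxd4, against 7.15% of all windows and 8.09% of genes. These sites are shown because CACGTG is the sequence the network itself binds, with 20 bases on each side, 5′ to 3′ on the strand of the gene in GRCm38.p6 and the E-box alone in capitals. They lie at chr12:76962226-76962271 (Max, minus strand), chr11:101087230-101087275 (Mlx, plus), chr11:74830781-74830826 (Mnt, plus) and chr5:34187904-34187949 (Mxd4, minus).
Max: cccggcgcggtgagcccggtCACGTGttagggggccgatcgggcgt
Mlx: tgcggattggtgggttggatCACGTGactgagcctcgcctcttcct
Mnt: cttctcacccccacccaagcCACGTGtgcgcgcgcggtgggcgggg
Mxd4: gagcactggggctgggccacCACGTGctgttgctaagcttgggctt
The first base of the E-box was 3 bases before the start site in Max, 40 in Mlx, 123 in Mnt and 219 in Mxd4. Of these 4 genes only Mnt passed the test, while Mxd1 and Mxi1, the genes that rose, had no CACGTG in their windows. The shorter ACGTG, which lies within CACGTG and is the core of hypoxia response elements, was found in the same 4 genes and in Mxi1, against 19.6% of all windows. No binding was measured in these data.

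Because RPKM is a level per length, the network genes could be set beside one another within a library. Each level is that of the mixed cells captured, not of endothelial cells alone, and that of Mxd3 may hold reads of Prelid1. By group median, Myc was the most abundant of them in Ctrl cells (45.3 RPKM), followed by Mxd4 (25.9), Max (19.6), Mxd3 (19.1), Mxd1 (19.1), Mxi1 (11.0), Mlx (10.6), Mlxip (9.23), Mnt (7.80) and Mycn (0.089). Every neighbouring pair in that order overlapped over the 3 libraries except Mnt and Mycn. In NICeCA cells Mxd1 came first (57.4 RPKM), above Mxi1 (29.6) without overlap, and Mxd4 (23.9), Mxd3 (23.9), Myc (23.7) and Max (20.9) followed. The last group below Max, from Mlx (12.9) through Mlxip (6.02) and Mnt (4.74) to Mycn (0.185), had no overlap between neighbours.

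The log2 ratio of Myc to Mxd1 was 0.74, 2.34 and 0.34 in the Ctrl libraries and -1.72, -1.26 and -0.32 in the NICeCA libraries. Myc was thus the more abundant transcript in 3 of 3 Ctrl libraries and Mxd1 in 3 of 3 NICeCA libraries. The 5 antagonists together, Mxd1, Mxd3, Mxd4, Mxi1 and Mnt, summed to 97.5, 82.4 and 99.6 RPKM in Ctrl and 157, 131 and 141 RPKM in NICeCA. This sum was 4.65 ± 0.67 times the Max level in Ctrl and 6.83 ± 0.85 times in NICeCA (mean ± SD, n = 3). The share of the sum that came from Mxd1 was 19.6%, 17.5% and 35.9% in Ctrl and 36.5%, 43.4% and 42.2% in NICeCA. That of Mxi1 was 13.3% ± 2.1 in Ctrl and 19.7% ± 1.5 in NICeCA, whereas that of Mnt was 7.98% ± 1.5 and 3.32% ± 0.32 (SD, n = 3). Mxd3 gave 21.7% ± 5.7 of the sum in Ctrl and 16.9% ± 0.16 in NICeCA (SD, n = 3). Any reads of Prelid1 in the Mxd3 row also enter the sum, its shares and its ratios. The log2 ratio of Myc plus Mycn to the antagonist sum was -1.61, -0.17 and -1.13 in Ctrl and -3.16, -2.45 and -1.55 in NICeCA, with a small overlap between NICeCA replicate 3 and Ctrl replicate 1. These ratios carry no test, since they were built from genes whose values had been seen.

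**Figure D3:**
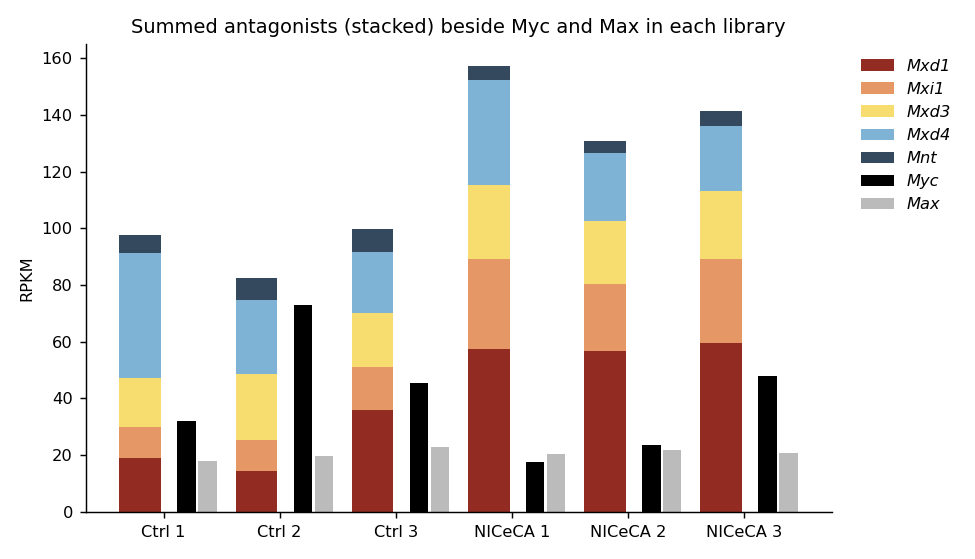
RPKM (vertical axis, from 0) in each of the 6 libraries, with the 5 antagonists stacked and Myc (black) and Max (light grey) beside them. The stack is 82.4 to 99.6 RPKM high in Ctrl and 131 to 157 RPKM in NICeCA, where Mxd1 is its largest share, while the Max bars hardly differ. The Mxd3 part of the stack may hold reads of Prelid1.

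The complexes that MXD and MNT recruit were read through their transcripts. Of 16 genes of the SIN3, histone deacetylase and NCOR corepressor complexes, 1 rose and 2 fell, with a median log2 fold change of -0.05. Over all tested genes 5.88% passed as higher and 7.68% as lower. Sap30, which encodes a SIN3 complex subunit, rose by 1.06 on the log2 scale (SE 0.18, limma adjusted p = 0.021), from 17.7, 19.7 and 27.1 RPKM to 51.9, 38.9 and 45.7 RPKM. Ncor1, which encodes a nuclear receptor corepressor, fell by 0.58 (SE 0.14, limma adjusted p = 0.041), from 14.3 ± 1.8 to 9.26 ± 1.3 RPKM (SD, n = 3). Its row is long (11144 bases), and with the length trend removed its log2 fold change was -0.19 and did not pass.

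Among 18 coactivators and cofactors of MYC, 5 fell and none rose, with a median of -0.03, while 7.68% of all tested genes passed as lower. Trrap, the scaffold of histone acetyltransferase complexes, fell by 0.85 (SE 0.14, limma adjusted p = 0.018), from 12.6 ± 1.6 to 6.52 ± 0.74 RPKM (SD, n = 3). Hcfc1 fell by 0.82 (SE 0.17, limma adjusted p = 0.030), and Kat2a and Ep400 were also among the genes that fell. After the length trend was removed 1 of the 18 still passed as lower, but not Trrap (-0.42, limma adjusted p = 0.074) or Hcfc1 (-0.53, limma adjusted p = 0.069). Without NICeCA replicate 1 or 2, 0 of the list passed, and 1 did without Ctrl replicate 2. Fibroblast markers, with 3 of 7 tested called lower, summed to 324 to 561 RPKM in Ctrl and 160 to 322 RPKM in NICeCA, and all 10 proliferation markers had negative log2 fold changes, 1 of them called. Their part in these values and in those of the MYC-activated genes was not tested. Of 18 genes that control MYC protein turnover, 2 fell, the ubiquitin ligase gene Huwe1 (-0.70, limma adjusted p = 0.036) and the deubiquitinase gene Usp36 (-0.70, limma adjusted p = 0.046), and none did so with the length trend removed. The median of this list was -0.30, and 16 of its 18 values were negative. Its 2 falls stand beside the 7.68% of all tested genes that passed as lower. Neither the turnover list nor the corepressors held a call without NICeCA replicate 1 or 2, and the turnover list held none without Ctrl replicate 2.

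Genes known as MYC targets were read in both directions. Of 43 tested genes that MYC activates, 1 rose and 4 fell, against 5.88% higher and 7.68% lower over all tested genes. The median log2 fold change was -0.23. Cad, which encodes the enzyme that starts pyrimidine synthesis, fell by 0.94 (SE 0.20, limma adjusted p = 0.033), the amino acid transporter gene Slc7a5 by 0.74 (limma adjusted p = 0.047), and the ribosome assembly gene Rrp12 by 0.62 (limma adjusted p = 0.043), with Rcl1 as the fourth. Ldha, which encodes lactate dehydrogenase and is also a hypoxia gene, rose by 0.99 (SE 0.18, limma adjusted p = 0.023), from 201, 259 and 314 RPKM to 538, 490 and 490 RPKM. The remaining 38 did not pass. No gene of this list passed without Ctrl replicate 2, NICeCA replicate 1 or NICeCA replicate 2, and with the length trend removed 1 was called higher and 1 lower, with Cad, Slc7a5 and Rrp12 no longer called.

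Of 12 genes that MYC represses, 7 rose and none fell, and their median was 0.83, while 5.88% of all tested genes passed as higher. Thbs1, which encodes the antiangiogenic matrix protein thrombospondin 1, rose by 1.90 (SE 0.34, limma adjusted p = 0.022), from 396, 232 and 626 RPKM to 1432, 1198 and 1762 RPKM. Ndrg1, a growth-arrest and hypoxia gene, rose by 1.32 (SE 0.15, limma adjusted p = 0.010), and Gadd45a, a stress-response gene, by 1.14 (SE 0.12, limma adjusted p = 0.0089). Gadd45b, Gadd45g and the cell cycle inhibitor genes Cdkn1c and Cdkn2b were the others that rose. The cell cycle inhibitor gene Cdkn1a did not pass, with 25.4, 23.6 and 44.5 RPKM in Ctrl and 49.0, 48.3 and 52.6 RPKM in NICeCA. The number called in this list ranged from 1 without NICeCA replicate 2 to 8 without Ctrl replicate 3. Summed neutrophil markers were also higher in every NICeCA library (857 to 2002 RPKM) than in Ctrl (234 to 400 RPKM). So were summed pericyte markers (61.9 to 115 RPKM against 32.7 to 46.4 RPKM), and the part of either in these values was not tested.

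Of 5 target genes of MLX and MondoA, Arrdc4, an arrestin-domain gene, rose by 0.95 (SE 0.25, limma adjusted p = 0.044) and Pfkfb3, a regulator of glycolysis, by 0.91 (SE 0.23, limma adjusted p = 0.044). Txnip, the most used marker of this branch, was at 144, 88.7 and 130 RPKM in Ctrl and 173, 164 and 117 RPKM in NICeCA, with overlap and no call. These 2 of 5 stand beside the 5.88% of all tested genes that passed as higher. Neither Arrdc4 nor Pfkfb3 kept its call when any library but Ctrl replicate 3 was left out.

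**Figure D4:**
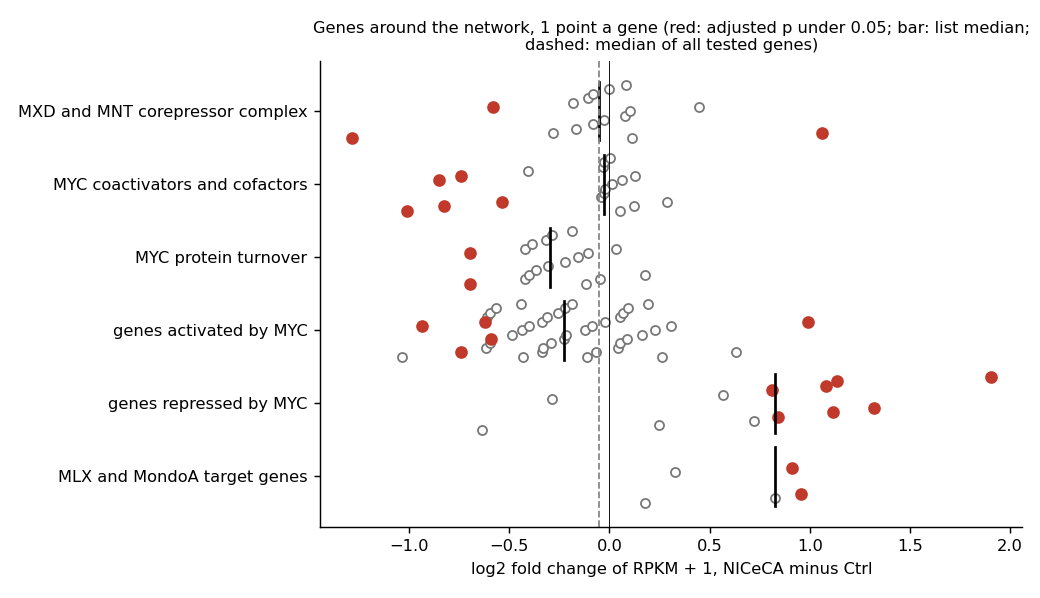
Log2 fold change of RPKM + 1, NICeCA minus Ctrl (horizontal axis), of each tested gene in 6 lists around the network, with genes of limma adjusted p under 0.05 in red, list medians as bars and the median of all tested genes dashed. The bars lie at 0.83 for genes repressed by MYC and for MLX and MondoA targets, and between -0.30 and -0.03 for the other lists.

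The study ties Myc to the microRNA miR-218, whose mature form is encoded in introns of Slit2 and Slit3. The mature sequence from RefSeq is shown because it is identical from both loci, at chr5:48223966-48223986 (Mir218-1) and chr11:35616840-35616860 (Mir218-2), both on the plus strand of GRCm38.p6. Capitals mark the seed, bases 2 to 8.
miR-218-5p: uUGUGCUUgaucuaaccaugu
These libraries do not measure mature microRNAs. The Mir218-1 row had 0 reads in every library and the Mir218-2 row had 1 read in Ctrl replicate 1 and 0 elsewhere, which allows up to 3 reads per library where 0 were seen, for counting error only. Slit2 was at 0.64, 1.25 and 0.87 RPKM in Ctrl and 0.19, 0.29 and 0.52 RPKM in NICeCA. Slit3 was at 0.47, 0.81 and 0.71 RPKM in Ctrl and 0.94, 0.89 and 1.32 RPKM in NICeCA. The host genes thus stood in opposite order, each without overlap, at levels too low to enter the test over all genes, and the exact two-sided permutation p was 0.10 for each, the smallest possible. Of the other microRNA rows tied to MYC, Mirlet7a-1 (0.46, limma adjusted p = 0.12) and Mir145 (0.62, limma adjusted p = 0.19) passed the filter on low values but not the test. Their rows are short (94 and 70 bases) and held few reads. Mirlet7a-1 had 9, 9 and 15 reads in Ctrl and 15, 13 and 17 in NICeCA, and Mir145 had 1, 3 and 3 against 3, 3 and 9.

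**Figure D5:**
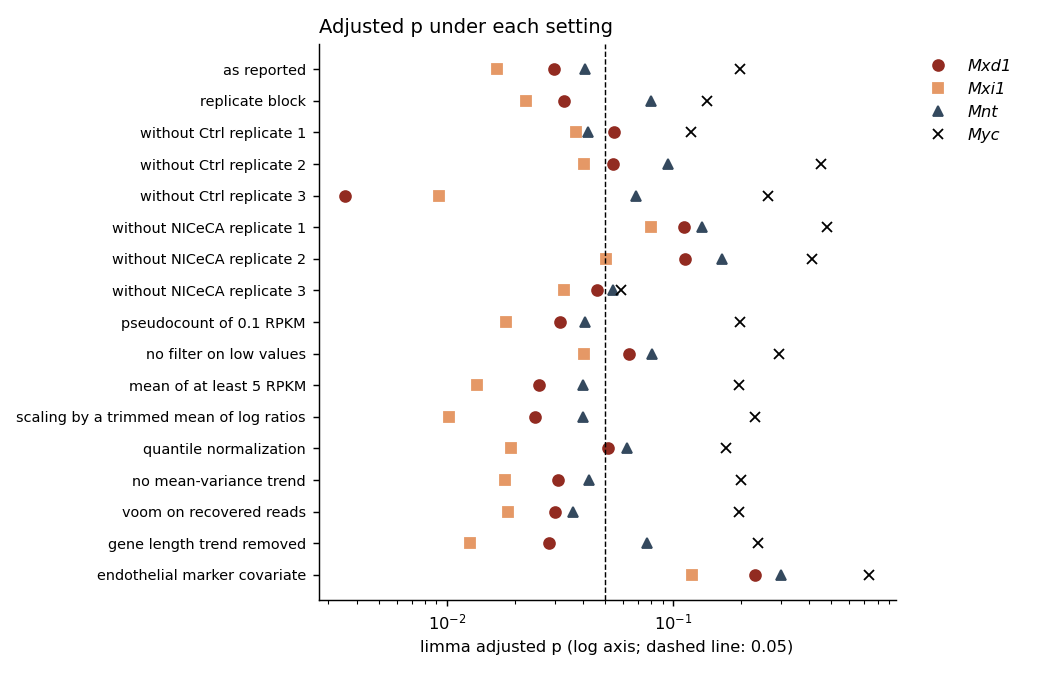
Limma adjusted p (horizontal log axis, dashed line at 0.05) of Mxd1, Mxi1, Mnt and Myc as reported and under 16 alternative settings. Mxi1 stays left of the line in 13, Mxd1 in 9 and Mnt in 6 of the alternatives, and Myc in 0.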

How the data were processed

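Bulk RNA-seq libraries of CD31 bead-captured cells from LLC tumors of 3 Ctrl and 3 NICeCA mice were grouped by their titles. Each library is labelled as a separate sample. The authors deposited RPKM values per gene. Alignment was with TopHat2, and mm9 is the build listed, according to the submitters' processing notes. However, 99.3% of 21665 RefSeq rows with a current symbol overlap their gene in GRCm38, so positions are given in that build. No source used here states the counting tool or its use of strand. The study's methods name OmicShare, which was not run. No other columns were present.

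From the deposited RPKM, log2(RPKM + 1) was compared between groups by limma (version 3.58.1, R version 4.3.3), using lmFit and eBayes with a mean-variance trend, two-sided. RefSeq rows with a mean of at least 1 RPKM were tested, with Benjamini-Hochberg adjustment over all 12320 and a threshold of 0.05. A fold change on this scale understates that of low genes. FANTOM3 rows, some of which cover exons of RefSeq rows, were not tested. Among RPKM values above 0 and under 1000 reads, 100% were whole multiples of 1 read (tolerance 0.05). Read numbers and depth were taken from the size of that step. The fit was also run on simulated reads, drawn gene by gene without a length trend or differences in cell mixture, so that run cannot speak to either.

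The members and lists were chosen with earlier results of these data known. Named were all 10 network genes, of each related list the members past the threshold (at most the 3 most positive and 3 most negative in full, or the 2 largest where none passed), Pvt1, Slit2, Slit3, the Mir218 rows and the 5 genes most like Myc. H2afy3, Notch1, Hey1, Nrarp, Hes1, Prelid1, Cdkn1a, Txnip and the remaining called list genes were named after their values were seen. Of the genes the rule names, 2 are not reported here. Sequences are from RefSeq tables of GRCm38.p6, where 9 of the 10 genes had a window. The study's methods speak of pairs of mice without naming the pairs, so limma was run without pairing. The p-values measure the spread between these samples.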

Additional observations from a re-analysis of the deposited data

How the results depend on the processing

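The 9 tested network genes kept the direction of their log2 fold change in every alternative fit with these exceptions, each of a gene that was not called. Max went to -0.010 under quantile normalization and had a range of -0.015 to 0.15 with 1 library left out, and Mxd4 had one of -0.29 to 0.21. With 1 library left out, Mxd1 ranged from 1.12 to 1.74, Mxi1 from 1.05 to 1.28 and Mnt from -0.64 to -0.48, and 0 to 2 network genes were called higher and 0 to 1 lower, beside 26 to 913 and 1 to 832 of all genes. Calls were lost at these values: without a filter on low values, Mxd1 (1.39) and Mnt (-0.54); under quantile normalization, Mxd1 (1.23) and Mnt (-0.42); with the length trend removed, Mnt (-0.39); and with the endothelial covariate, Mxd1 (1.35), Mxi1 (1.27) and Mnt (-0.37). This left 1, 1, 2 and 0 network genes called higher and 0 lower in each. Over all genes the fits called 260 higher and 105 lower without the filter, 446 and 325 under quantile normalization (57.8% of calls higher), 590 and 206 with the length trend removed (74.1%), and 629 and 579 at a mean of at least 5 RPKM, against 725 and 946 as reported (43.4%). The limma fit with the covariate called 0 and 0, with 2130 genes and 3 network genes at an unadjusted p under 0.05. The causes were not tested.

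The study's methods speak of pairs of NICeCA and control mice, but no source used here says which libraries form a pair. The deviations of same-numbered libraries correlated at 0.12, -0.34 and -0.18, and 1 of 6 libraries was closest to its own number. This cannot show whether the mice were paired, since pairs need not follow the replicate numbers. With the replicate number as a block, 327 genes were called higher and 209 lower, and of the network genes Mxd1 and Mxi1 were called (2 higher) and 0 lower, since Mnt (-0.54) had a limma adjusted p of 0.080.

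Among related genes, Mga had 0.27 with the length trend removed, and Mycl1, at 0.02 as reported, ranged from -0.097 to 0.18 with 1 library left out and had -0.32 with the covariate. List medians moved for the further network genes (0.19 with the length trend removed, -0.28 with the covariate), corepressors (0.042, covariate), turnover (-0.062, covariate), microRNA rows (-0.043 at 5 RPKM) and genes repressed by MYC (1.12 with a pseudocount of 0.1 RPKM, 1.10 at 5 RPKM, 1.14 with voom on recovered reads). The rows of the tested network genes held at least 699 reads in each library, and depth limits Mycn, with 5 to 30 reads, as well as the rows of Mirlet7a-1 and Mir145.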
